A study of Mus musculus with 6 samples.

Results

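Genes for tektins and for the central apparatus of the axoneme were followed in testes of mice at postnatal day 14. The 10 genes were taken from the deposited count table by symbol, out of 50763 symbols. They are the tektins Tekt1, Tekt2, Tekt3, Tekt4 and Tekt5, the central apparatus genes Spag6, Spag16, Spag17 and Hydin, and Nme5. The genes were chosen by structure, with the sKO against WT values of these same libraries in view. Values of the 10 genes between genotypes are therefore given as a description, without a test of their own. Of the 10 genes, 9 passed the filter on low counts, and Tekt3 did not.

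Poly(A) RNA was sequenced from 3 testis samples of wild-type mice (WT) and 3 of mice labelled sKO, in which Rif1, a DNA repair and replication timing factor, was deleted conditionally in germ cells that had not yet begun meiosis. Neither the Cre driver nor the deleted exons nor the strain is given in the sources used here. Nothing in the labels ties each sample to its own animal. The p-values therefore reflect the spread among these 6 samples, part of which may be technical.

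The axoneme is the microtubule core of motile cilia and of the sperm tail, with a ring of outer doublets around a central pair of single microtubules. Tektins are filament proteins packed inside the doublet wall, which they stiffen. The central apparatus is the central pair with its projections, which pass signals through the radial spokes to the dynein motors. In the testis, male germ cells transcribe many axoneme genes from meiotic prophase on, ahead of tail assembly in spermatids. Because the libraries hold RNA of the whole testis, fewer cells of a type and less RNA per cell cannot be told apart.

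Promoter sequences are shown because they can be compared apart from the counts. RefSeq windows (GRCm38.p6, 250 bases before to 50 bases after each gene start) were found for 9 of the 10 genes, and Nme5 had none. Factors of the RFX family bind an X-box, whose core letters were searched here as GTTGCC on either strand (GGCAAC on the other). In the 150 bases that end just before the gene start, written 5′ to 3′, capitals mark each match to this RFX core. Spag17 is shown for comparison, since its window held no match.
Tekt1 (chr11:72361883-72362032, minus strand): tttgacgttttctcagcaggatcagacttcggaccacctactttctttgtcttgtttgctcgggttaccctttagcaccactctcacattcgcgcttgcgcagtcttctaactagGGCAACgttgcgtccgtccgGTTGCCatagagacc
Tekt2 (chr4:126325689-126325838, minus strand): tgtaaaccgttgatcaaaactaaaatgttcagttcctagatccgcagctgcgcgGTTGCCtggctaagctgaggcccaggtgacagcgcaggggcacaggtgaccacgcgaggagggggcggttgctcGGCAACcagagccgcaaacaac
Spag16 (chr1:69826820-69826969, plus strand): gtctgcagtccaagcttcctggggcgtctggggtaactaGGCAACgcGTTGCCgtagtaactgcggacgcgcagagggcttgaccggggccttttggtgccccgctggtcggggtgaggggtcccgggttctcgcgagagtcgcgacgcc
Hydin (chr8:110266827-110266976, plus strand): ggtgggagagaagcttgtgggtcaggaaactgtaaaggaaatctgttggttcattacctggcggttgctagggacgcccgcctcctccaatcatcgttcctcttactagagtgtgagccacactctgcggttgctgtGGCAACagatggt
Spag17 (chr3:99885267-99885416, plus strand): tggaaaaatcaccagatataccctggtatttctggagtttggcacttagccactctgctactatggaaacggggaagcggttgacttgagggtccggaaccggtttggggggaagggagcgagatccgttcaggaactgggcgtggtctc

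The RFX core occurred in windows of 6 of the 9 genes, namely Tekt1, Tekt2, Tekt4, Spag6, Spag16 and Hydin. Among all 27025 genes with a window, 14.1% had at least 1 match, and among all 32851 windows the share was 12.5%. At least 2 matches in 1 window were found for 3 of the 9 genes, against 1.02% of all windows. Shares of genes and of windows are unlike measures, since Tekt1 had 2 windows and Tekt2 had 3. In Tekt1 the matches began at bases -35 and -15 from the start on opposite strands, and in Spag16 they began at -111 and -103. Tekt2 had them at -96 and -22, and Hydin had a single match at -13. In Tekt4 the match began at base 9 after the start.

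Other motifs were rarer in these windows. A forkhead site, TGTTTAC on either strand, occurred in Tekt3 alone of the 9 genes and in 4.05% of all genes (3.65% of windows). A MYB family core, AACTGNC on either strand, occurred in Tekt1 and Tekt4 and in 14.5% of all genes (12.8% of windows). The letters of a cAMP response element, TGACGTC on either strand, occurred in the window of another, more downstream Tekt1 start. Of all genes with a window 3.60% held these letters, as did 3.21% of windows. No RFX match overlapped a match to another motif in the 9 genes. These matches describe letters and not bound sites. Among 15 other central apparatus genes with a window, 9 held the RFX core (60.0%), beside 66.7% of the genes described here.

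**Figure D1:**
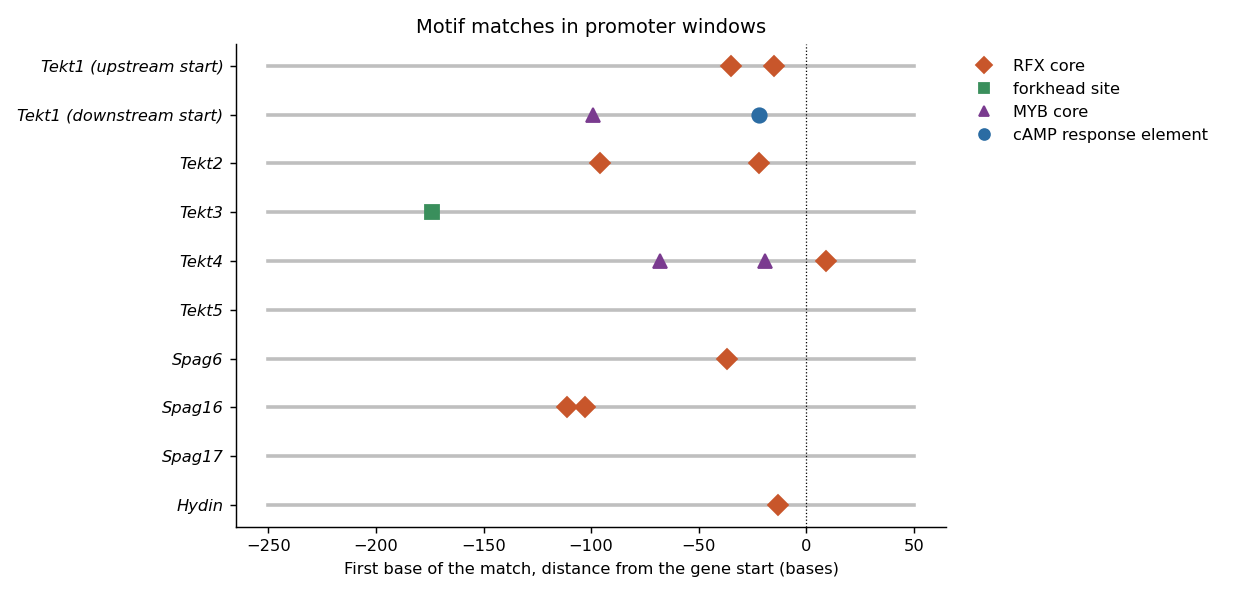
Matches to 4 motifs in promoter windows of 9 genes. The horizontal axis gives the distance of each match's first base from the gene start in bases, and each grey line is the searched window (2 windows for Tekt1, the most upstream of its windows for Tekt2). Diamonds, the RFX core, lie before the start in Tekt1, Tekt2, Spag6, Spag16 and Hydin and after it in Tekt4, while Tekt5 and Spag17 have no match.

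Libraries held between 15941672 and 18296594 counts. A count of 0 allows up to 3 counts, which is 0.165 to 0.187 CPM, the level used below, in which each count is scaled to the TMM-adjusted library total. This limit covers counting error only, since without molecular identifiers several reads can stem from 1 molecule. Rif1 itself had a mean of 45.8 ± 3.62 CPM in sKO against 103 ± 23.3 CPM in WT (SD, n = 3 per genotype; log2 fold change -1.17, SE 0.15, adjusted p = 0.0145 with edgeR). Over all 18860 genes tested with edgeR, 1.27% were called lower in sKO and 0.0318% were called higher, at an adjusted p under 0.05. Epididymal transcripts stood apart in sKO library 1, in which the 12 listed epididymis markers summed to 167 CPM against 9.20 to 23.2 CPM in the other libraries.

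Among the tektins, Tekt1 showed the widest gap between the genotypes and Tekt2 hardly any. Tekt1, which belongs to the tektins of both cilia and sperm tails, was at 16.8, 11.4 and 5.78 CPM in the WT libraries (numbered 1 to 3, in that order throughout) and at 0.961, 1.21 and 2.20 CPM in the sKO libraries. Every sKO library lay below every WT library, and the WT libraries themselves spanned a 2.91-fold range from library 3 to library 1. The mean was 1.46 ± 0.655 CPM in sKO against 11.3 ± 5.52 CPM in WT (SD, n = 3 per genotype), with an estimated log2 fold change of -2.95 (SE 0.43). The sKO mean was thus 12.8% of the WT mean.

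Tekt2, a tektin of motile cilia and of the sperm tail whose loss in mice impairs sperm motility, had nearly the same count in every library. It stood at 7.74, 8.19 and 8.52 CPM in the WT libraries and at 7.45, 7.39 and 7.59 CPM in the sKO libraries. The sKO values were all below the WT values, but by little, and the coefficient of variation was 4.81% in WT and 1.38% in sKO. The log2 fold change was -0.12 (SE 0.16). WT library 1, the highest for Tekt1, was the lowest WT library for Tekt2.

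The other tektins were scarce at this age. Tekt4, which acts in the sperm flagellum, had 19, 19 and 11 counts in the WT libraries and 6, 8 and 5 counts in the sKO libraries, with a log2 fold change of -1.35 (SE 0.43). Its groups did not overlap, and at 0.956 ± 0.237 and 0.373 ± 0.105 CPM (SD, n = 3 each) both lay above the limit of 3 counts. Tekt5, a tektin of male germ cells, had 12, 14 and 13 counts in WT and 9, 8 and 6 counts in sKO, with a log2 fold change of -0.76 (SE 0.41). Its groups were also apart, by a gap of 3 counts. Tekt3, a further tektin of the sperm tail, had 1, 6 and 4 counts in WT and 0, 0 and 4 counts in sKO, too few for a fold change.

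The make-up of the tektin pool differed accordingly. Tekt1 gave 63.8%, 52.2% and 36.0% of the counts of the 5 tektins in the WT libraries and 10.3%, 12.7% and 20.7% in the sKO libraries. Tekt2 gave 29.4%, 37.4% and 53.1% in WT and 80.0%, 77.2% and 71.5% in sKO. The 95% Wilson intervals for Tekt1 reached down to 30.4% in WT and up to 27.0% in sKO. They cover counting error only and not the spread between libraries. Within WT the interval of library 1 began at 59.4%, while that of library 3 ended at 42.1%. Per length, in CPM per kb of merged exons (GENCODE, GRCm38), Tekt1 had the highest level of the 10 genes in WT at 6.99 ± 3.40 (SD, n = 3), and Tekt2 the highest in sKO at 3.93 ± 0.0541 (SD, n = 3). In WT the order by level per kb was Tekt1, Nme5 and Tekt2, whose WT libraries overlapped, and then the remaining genes at means from 0.784 (Spag17) to 0.126 (Tekt3).

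**Figure D2:**
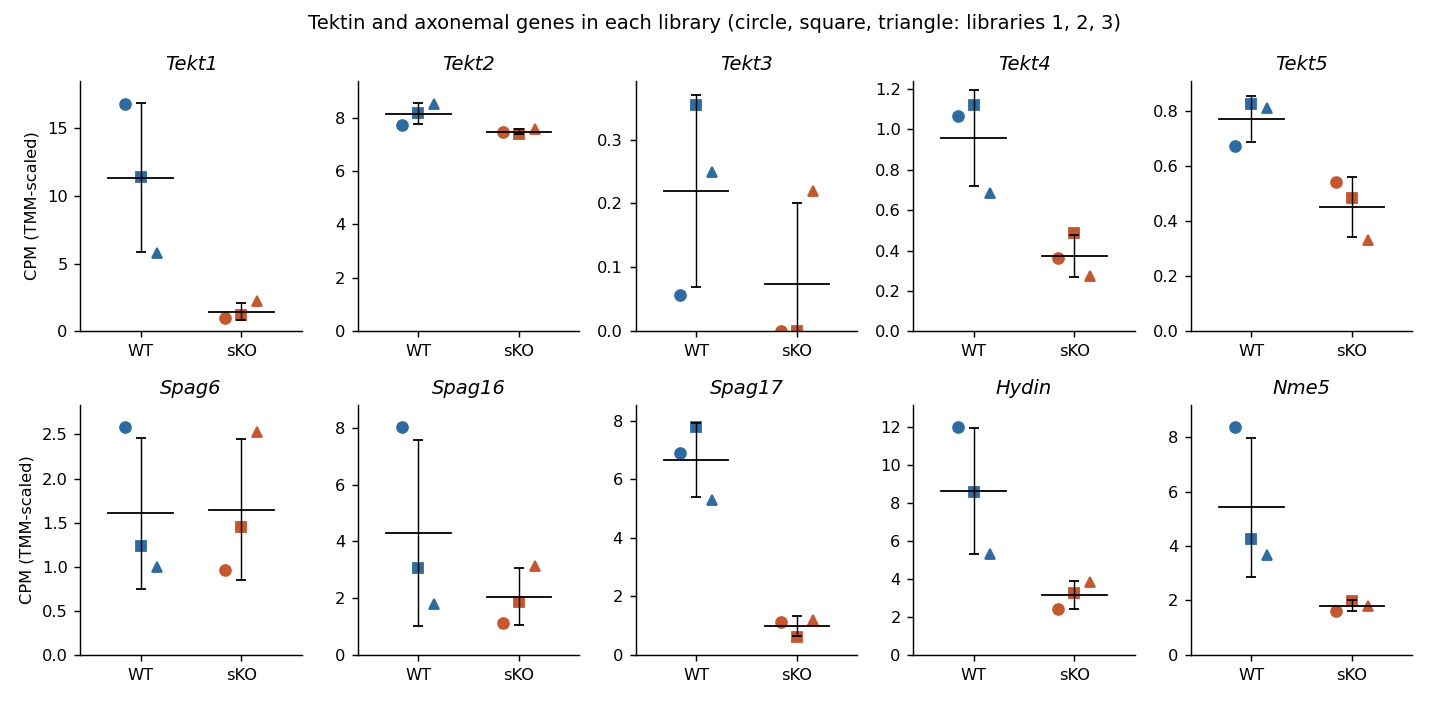
Level of each of the 10 genes in every library, in CPM on a linear axis that starts at 0 and differs between panels. Circles, squares and triangles are libraries 1, 2 and 3 of each genotype, and bars give the mean and SD (n = 3). Tekt1, Tekt4, Tekt5, Spag17, Hydin and Nme5 have all sKO points below all WT points, as does Tekt2 by a narrow margin. Tekt3, Spag6 and Spag16 overlap.

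Of the central apparatus genes, Spag17 and Hydin were lower in every sKO library. Spag17 encodes a large scaffold of a projection of the central pair and is needed for ciliary beating. It stood at 6.90, 7.78 and 5.29 CPM in the WT libraries and at 1.14, 0.605 and 1.21 CPM in the sKO libraries. The lowest WT library stood at 4.37 times the highest sKO library, and the coefficient of variation in WT, 19.0%, was below the 48.7% of Tekt1. The log2 fold change was -2.74 (SE 0.30), and the p-value was the smallest of the 18860 genes, which is given as a description because the comparison was in view when the gene was listed. Exons of Spag17 share 820 bases with Wdr3 on the opposite strand (GENCODE, GRCm38), and Wdr3 had 1275 to 1645 counts per library. The strand setting of the counting is not given in the sources used here, so reads from that stretch cannot be assigned to either gene.

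Hydin encodes a giant protein of a central pair projection, and its loss in mice causes hydrocephalus. It stood at 12.0, 8.60 and 5.35 CPM in the WT libraries and at 2.40, 3.27 and 3.85 CPM in the sKO libraries, with a log2 fold change of -1.44 (SE 0.30). The groups did not overlap, though WT library 3 and sKO library 3 came within 1.39-fold of each other. Because the gene is long (18.0 kb of merged exons), its level per kb was low, at 0.480 ± 0.184 CPM per kb in WT and 0.176 ± 0.0404 CPM per kb in sKO (SD, n = 3 each).

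Spag16, a WD-repeat protein of the bridge between the central microtubules, varied most of the 10 genes within WT (coefficient of variation 76.5%). It stood at 8.02, 3.06 and 1.80 CPM in the WT libraries and at 1.14, 1.88 and 3.13 CPM in the sKO libraries. The groups overlapped, since sKO libraries 2 and 3 exceeded WT library 3 and sKO library 3 exceeded WT library 2. The log2 fold change of -1.06 (SE 0.56) rested on WT library 1, as it was -0.24 without that library.

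Spag6 and its paralog Spag6l, armadillo-repeat proteins of the central apparatus, went separate ways. Spag6 stood at 2.58, 1.24 and 0.995 CPM in the WT libraries and at 0.961, 1.45 and 2.53 CPM in the sKO libraries, so the groups overlapped fully and the log2 fold change was 0.04 (SE 0.45). Spag6l, which is not among the 10 genes, stood at 13.9, 6.72 and 4.54 CPM in WT and at 0.661, 0.666 and 2.31 CPM in sKO. Its log2 fold change of -2.77 (SE 0.58) missed the threshold over the whole table (edgeR adjusted p = 0.0703), although its groups did not overlap. Both paralogs were highest in WT library 1 within WT and in sKO library 3 within sKO.

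Spag6 accordingly made up 15.6%, 15.6% and 18.0% of the summed counts of the pair in the WT libraries and 59.3%, 68.6% and 52.3% in the sKO libraries. The 95% Wilson intervals, which cover counting error only, reached up to 27.2% in WT and down to 40.7% in sKO. The treatment of reads that match both paralogs is not given in the sources used here, so the split between them is uncertain.

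**Figure D3:**
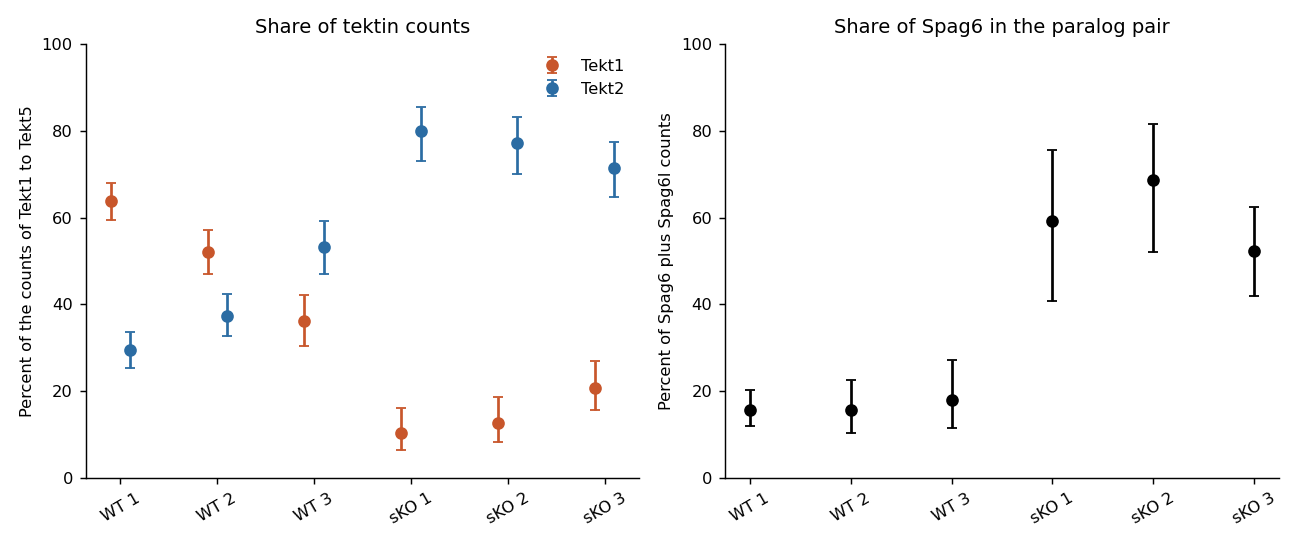
Shares of counts in each library in percent, with 95% Wilson intervals as bars. Left, Tekt1 and Tekt2 as a share of the counts of Tekt1 to Tekt5; right, Spag6 as a share of Spag6 plus Spag6l. The share of Tekt1 is at most 20.7% in sKO against at least 36.0% in WT, and the share of Spag6 is at least 52.3% in sKO against at most 18.0% in WT.

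Nme5, a nucleoside diphosphate kinase family protein assigned to the radial spokes rather than to the central pair, was also lower in every sKO library. It stood at 8.36, 4.24 and 3.67 CPM in the WT libraries and at 1.62, 1.998 and 1.81 CPM in the sKO libraries, with a log2 fold change of -1.58 (SE 0.33). WT library 1 was well above the other WT libraries, whereas the sKO libraries lay close together (coefficient of variation 10.4%). Per kb of merged exons Nme5 ranked second of the 10 genes in both genotypes, at 4.70 ± 2.22 CPM per kb in WT and 1.57 ± 0.163 CPM per kb in sKO (SD, n = 3 each).

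Taking the 9 genes that passed the filter, edgeR called 4 lower (Tekt1, Spag17, Hydin and Nme5) and 0 higher, where 1.27% of all genes were called lower. DESeq2 called the same 4, where it called 3.82% of all genes lower. Limma-voom called 0 of the 9 and 0 of all genes. With limma-voom 5 of the 9 were lower at an unadjusted p under 0.05, as were 8.47% of all genes. With the replicate number as a block edgeR called Spag17 alone, where 0.111% of all genes were called lower. Estimates were below 0 for 8 of the 9, as for 44.7% of all genes. For 7 of the 9 every sKO library was below every WT library, which held for 10.7% of all genes. Their median log2 fold change was -1.35, against 0.03 over all genes tested. These counts are a description only, because the comparison was in view when the genes were listed. The 4 calls did not survive every change of library: edgeR called 0 of the 9 when WT library 2 was left out, and likewise for sKO library 1 and for sKO library 2. In these 3 fits with 0 calls, 5 of the 9 genes had an unadjusted p under 0.05 and a lower estimate, as did 8.58%, 7.29% and 6.27% of all genes. Leaving out WT library 1 kept the calls of Spag17 and Tekt1, where 0.524% of all genes were called lower.

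Other genes of the same structures were listed by structure, with earlier results of these data known. Of 17 other central apparatus genes 16 were tested, of which edgeR called 2 lower and 0 higher, where 1.27% of all genes were called lower, and 14 had estimates below 0. The number called lower was 11 with DESeq2, where 3.82% of all genes were called lower. It was 0 with limma-voom or the replicate block, where 0% and 0.111% of all genes were. In the same 3 fits that called none of the 9 genes it was also 0, as it was over all genes. It reached 9 without WT library 3 and 7 without sKO library 3, where 2.58% and 3.23% of all genes were called lower. The median log2 fold change of the 16 tested genes was -1.19. Cfap46 and Cfap54, which belong to a projection of the central pair, both fell. The log2 fold change was -2.43 for Cfap46 (SE 0.36, edgeR adjusted p = 0.0243) and -1.57 for Cfap54 (SE 0.31, edgeR adjusted p = 0.0418). Wdr93 had a log2 fold change of -1.31 (SE 0.28) that did not pass the test (edgeR adjusted p = 0.0548). Mycbp, Mycbpap and Cfap47 had log2 fold changes between -0.02 and 0.21, near those of Tekt2 and Spag6. These 3 genes were chosen after their values were seen.

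Of 29 other proteins inside the doublet wall, the neighbours of the tektins, 23 were tested. EdgeR called 1 lower and 0 higher, where 1.27% of all genes were called lower. The median log2 fold change was -0.50, and 17 estimates were below 0. The called gene was Cfap45, which fell with a log2 fold change of -1.64 (SE 0.33, edgeR adjusted p = 0.0440). DESeq2 called 7 of these genes lower, and 3.82% of all genes. Limma-voom and the replicate block called 0 of them, and 0% and 0.111% of all genes. With 1 library left out edgeR called 0 without WT library 1 or 2 or sKO library 1 or 2. The share of all genes called lower was 0.524% without WT library 1, and 0% without WT library 2 or sKO library 1 or 2. EdgeR called 6 without WT library 3 and 5 without sKO library 3, where 2.58% and 3.23% of all genes were called lower. Ribc2 had a log2 fold change of -0.76 (SE 0.17, edgeR adjusted p = 0.0548) and Cfap210 one of -0.82 (SE 0.19, edgeR adjusted p = 0.0727).

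**Figure D4:**
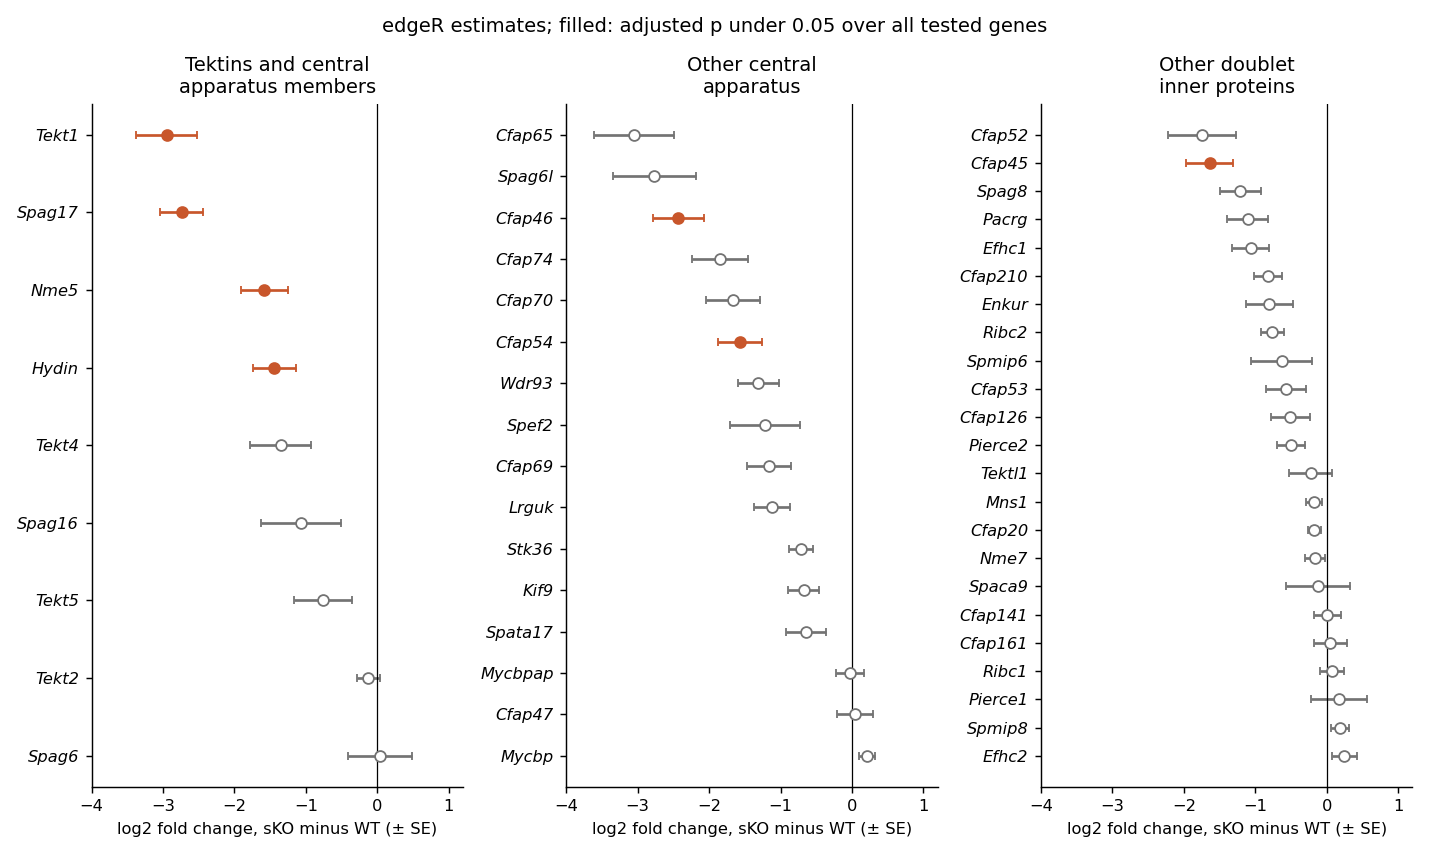
Log2 fold changes of sKO against WT with their SE for the tested genes of 3 lists, from edgeR. Filled symbols mark an adjusted p under 0.05 over all 18860 genes. Estimates run from -2.95 to 0.04 for the listed tektins and central apparatus genes, from -3.05 to 0.21 for other central apparatus genes and from -1.75 to 0.25 for other doublet inner proteins.

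Transcription regulators of ciliary and spermatocyte genes were set beside these values. Of 12 listed, 10 were tested, with 1 called lower and 0 higher, where edgeR called 1.27% of all genes lower. Rfx2, an RFX factor of spermatocytes, stood at 47.6, 51.8 and 31.5 CPM in the WT libraries and at 14.0, 14.5 and 22.2 CPM in the sKO libraries, and its log2 fold change was -1.37 (SE 0.22, edgeR adjusted p = 0.0299). Rfx4 had a log2 fold change of -3.46 (SE 0.68, edgeR adjusted p = 0.0596), and the testis factor Sox30 one of -1.03 (SE 0.28, edgeR adjusted p = 0.122). Rfx1 and Rfx3 had log2 fold changes of 0.06 and 0.08. Foxj1, the regulator of motile cilia in epithelia, had a mean of 2.95 ± 0.574 CPM in sKO and 2.63 ± 0.489 CPM in WT (SD, n = 3 per genotype; edgeR adjusted p = 0.830). Mybl1, a regulator of pachytene transcription, had a log2 fold change of -0.59 (SE 0.20, edgeR adjusted p = 0.218). Rfx1, Rfx3, Foxj1 and Mybl1 were chosen after their values were seen.

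Markers of pachytene spermatocytes had a lower median in every sKO library, as the 9 tested genes did together, and the same order of libraries within WT. Log2 levels were taken relative to each gene's own WT mean. Their median over the 9 tested genes was 0.54, 0.07 and -0.46 in the WT libraries and -1.55, -0.88 and -1.07 in the sKO libraries. For the 12 tested pachytene markers of 16 listed it was 0.56, -0.01 and -0.46 in WT and -1.94, -1.62 and -1.09 in sKO. Within sKO the orders differed, since library 2 was highest for the 9 genes and library 3 for the markers. The 4 tested tektins alone had medians of 0.05, 0.12 and -0.17 in WT, highest in library 2. Their sKO medians were -0.78, -0.68 and -1.20. For the other 5 genes the medians were 0.71, -0.21 and -0.52 in WT and -1.58, -1.29 and -1.07 in sKO. The summed level of the 16 listed markers was 743 to 1565 CPM in WT and 298 to 498 CPM in sKO. Estimates were below 0 for 10 of the 12 and above 0 for Spag4 (0.11) and Ovol1 (0.33). Ovol1 was higher in every sKO library. EdgeR called 2 of the 12 lower, where 1.27% of all genes were called lower. These were Acr, the acrosomal protease (log2 fold change -3.22, SE 0.48, edgeR adjusted p = 0.0243), and Ybx2, a germ cell RNA-binding protein (-1.55, SE 0.27, edgeR adjusted p = 0.0490). Meig1, a protein needed for spermiogenesis, had a log2 fold change of -1.72 (SE 0.34) and missed the threshold (edgeR adjusted p = 0.0631). The part of these markers in the values of the tektins and central apparatus genes was not tested.

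Lists of earlier germ cells and of Sertoli cells had medians nearer to 0. The 12 markers of leptotene and zygotene spermatocytes had a median log2 fold change of -0.57. Their summed level was 2112 to 3129 CPM in WT and 1511 to 2255 CPM in sKO. EdgeR called 2 of them lower, Spo11 and Tex101, where 1.27% of all genes were called lower. Estimates were below 0 for 10 of the 12 and above 0 for Rec8 (0.17) and Prdm9 (0.06). Meiob had a log2 fold change of -1.04 (SE 0.30, edgeR adjusted p = 0.168). The 10 spermatogonia markers had a median of 0.16 with 0 called, and the 12 Sertoli cell markers one of 0.22 with 0 called. Estimates were above 0 for 9 of the 10 and for 12 of the 12, as for 10423 of all 18860 genes. Of the spermatogonia and Sertoli cell markers 2 and 6 had an unadjusted p under 0.05 with edgeR, as did 2565 of all 18860 genes. The smallest p-values were those of Ret, Dmrtb1 and Zbtb16 among the spermatogonia markers, with log2 fold changes of 0.30, -0.32 and 0.18, and of Wt1, Sox9 and Gata4 among the Sertoli cell markers, with 0.26, 0.26 and 0.30. By median, WT library 1 was highest for the 9 tested genes and for both spermatocyte lists, and lowest for the spermatogonia and Sertoli lists. The 4 tested tektins alone had their highest WT median in library 2.

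**Figure D5:**
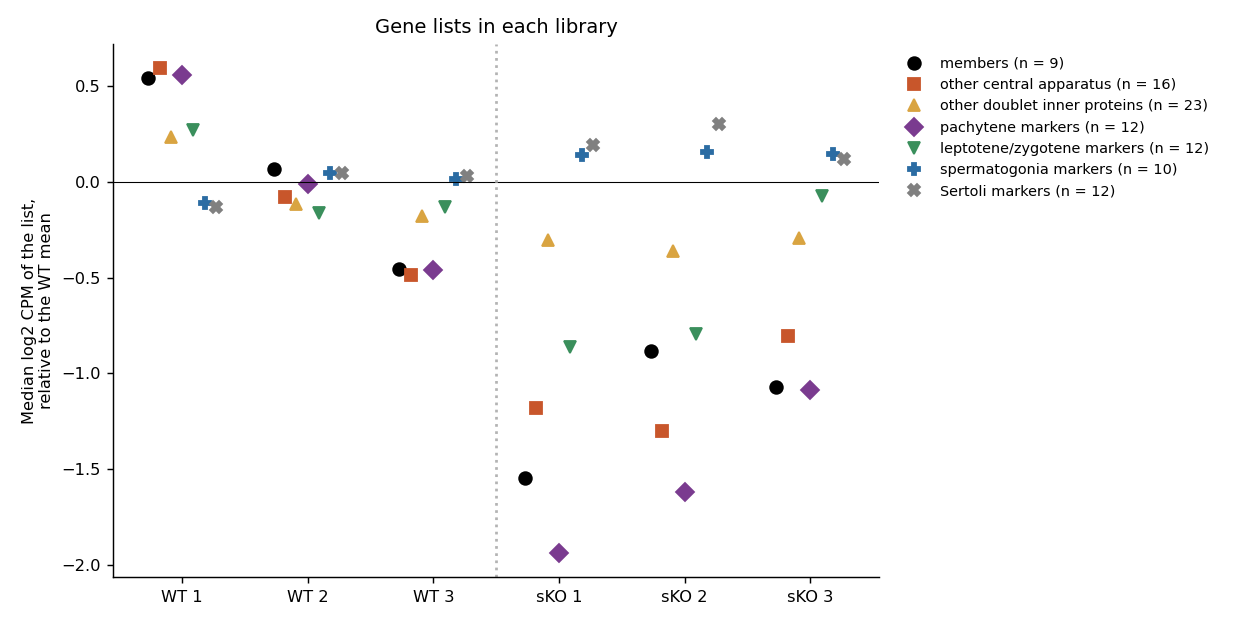
Median over each gene list of log2 CPM relative to each gene's own WT mean, in each library, with the number of tested genes in the key. The listed tektins and central apparatus genes (members, black circles) run from 0.54 in WT library 1 to -1.55 in sKO library 1, beside the pachytene markers at 0.56 and -1.94. Spermatogonia and Sertoli markers stay between -0.13 and 0.30.

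Tektins and central apparatus proteins are also made by multiciliated cells, such as those lining the efferent ducts next to the testis. Of 12 markers listed for such epithelium 11 were found and 8 tested, with 0 called. Of the 8, 2 had an unadjusted p under 0.05 with edgeR, as did 2565 of all 18860 genes. These 2 went opposite ways. Ccno, which acts in making the many centrioles of such cells, was higher in every sKO library (53 to 63 counts in WT and 79 to 88 in sKO; log2 fold change 0.58, SE 0.20, edgeR adjusted p = 0.216). Deup1, which acts in the same process, stood at 1.37 to 2.52 CPM in WT and 0.420 to 1.21 CPM in sKO, without overlap (log2 fold change -1.18, SE 0.41, edgeR adjusted p = 0.219). Pax8 had a log2 fold change of 0.66 (SE 0.32, edgeR adjusted p = 0.413). The summed level of the listed markers was 82.4 to 94.0 CPM in WT and 89.6 to 124 CPM in sKO, highest in sKO library 1. Most of it came from Epcam, a general epithelial adhesion protein, at 56.2 to 71.2 CPM in WT and 65.3 to 84.4 CPM in sKO. Mcidas and Gmnc, defining regulators of multiciliated cells, had 0 to 11 and 0 to 5 counts per library. Sntn, a protein of ciliary tips, had 10 counts in sKO library 1 and 0 to 2 elsewhere.

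Epididymis markers, high in sKO library 1 as given above, had 5 of 12 tested, with 0 called. Of the 5, 1 had an unadjusted p under 0.05 with edgeR, as did 2565 of all 18860 genes. Crisp1, a secreted protein of the epididymis, had 1493 counts in sKO library 1 and 0 to 181 elsewhere. The 3 of smallest p were Cst8, Adam7 and Cdh16, with log2 fold changes of 0.53, 3.28 and 2.61 (edgeR adjusted p = 0.351, 0.492 and 0.554). Without sKO library 1 the median log2 fold change of the 9 tested tektins and central apparatus genes was -1.30, against -1.35 with it.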

How the data were processed

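RNA of whole testis was measured in 3 WT and 3 sKO samples. The authors deposited raw counts of reads by gene symbol, made with Trim Galore, HISAT2 and featureCounts on mm39 per the submitters' processing notes. No tool version, annotation release, strand setting or rule for multi-mapped reads is given in the sources used here. Columns named con and scKO were read as WT and sKO and matched by number.

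The analysis used edgeR 4.0.16 under R 4.3.3 (filterByExpr, TMM factors, robust quasi-likelihood F test, no covariates), with Benjamini-Hochberg adjustment over 18860 genes and a threshold of 0.05. The SE came from the F statistic, and log2 CPM used a prior count of 2. Alternatives were RLE and upper-quartile factors, no low-count filter, a non-robust fit, DESeq2 1.42.0, limma-voom (limma 3.58.1), a replicate block and leaving out libraries. The scripts were tested on simulated data.

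Libraries of 1 genotype differed from each other beyond counting noise in all 6 pairs (chi-square over degrees of freedom from 4.45 to 20.2). Exon lengths came from GENCODE vM21 and promoters from RefSeq, both GRCm38. The 10 genes, 9 other lists (132 entries, of which 131 were found) and the motifs were chosen with earlier results of these data known. Named besides the 10 genes and Rif1 are the 3 genes of smallest p in each list, or 4 where 3 or more were called. Also named are Spag6l, the 5 genes of most similar profile, markers of other cell types and the tektin relatives Tektl1 and Tektip1. A few further genes are marked in the text as chosen after their values were seen.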

Additional observations from a re-analysis of the deposited data

How the results depend on the processing

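Most values kept their direction. Over 14 alternatives for each of 9 tested genes, 98 of 126 results kept direction and side of the threshold, 23 lost a call, 1 gained one and 4 changed sign. Only the 4 genes called in the main fit could lose a call. Hydin and Nme5 each kept theirs in 7 of 14 alternatives, Tekt1 in 9 and Spag17 in 10. Spag6 changed sign without WT library 2 (-0.12), WT library 3 (-0.21) or sKO library 3 (-0.45), over a range of -0.45 to 0.56 with each library left out, and Spag16 without both libraries numbered 1 (0.0299). The cause was not tested.

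Counts of calls moved more. The numbers of all genes lower and higher were 992 and 154 without the low-count filter, 721 and 56 with DESeq2, and 0 and 0 with limma-voom, where 1598 and 932 genes had an unadjusted p under 0.05. Without both libraries numbered 1, 155 genes were lower. Of the 9 genes, limma-voom called 0 (5 at an unadjusted p under 0.05) and the fit without both libraries numbered 1 called 2. Other central apparatus genes called lower were 11 with DESeq2, 11 without the filter, 5 with the non-robust fit and 0 with limma-voom. Other doublet inner protein genes called lower were 7 with DESeq2, 8 without the filter, 2 with upper-quartile factors, 0 with limma-voom and 0 without both libraries numbered 1. Of all genes, 3.82% were called lower with DESeq2, 2.83% without the filter and 1.76% with the non-robust fit. The share was 1.66% with upper-quartile factors and 0.817% without both libraries numbered 1.

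Leaving out each library in turn gave 0 to 624 genes lower and 0 to 31 higher, 0 to 4 of the 9 genes, a median of their log2 fold changes between -1.54 and -1.12, 0 to 9 other central apparatus genes and 0 to 6 other doublet inner protein genes. In the 3 fits with 0 calls, 1662, 1410 and 1221 genes had an unadjusted p under 0.05 and a lower estimate, and 1102, 431 and 503 a higher one.

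Same-numbered libraries did not deviate together (correlations across genes of -0.34, 0.12 and -0.28). With so few libraries, these correlations cannot decide whether the numbers pair the samples. With the replicate block, 21 genes were lower and 0 higher, with 1 of the 9 genes called (Spag17), 0 other central apparatus genes and 0 other doublet inner protein genes; 1324 and 605 genes were lower and higher at an unadjusted p under 0.05. Depth limits Tekt3, Tekt4 and Tekt5, at 0 to 19 counts per library.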

Other observations

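Relatives of the tektins outside the list were also at low levels. Tektl1, a tektin-like gene, had 31, 33 and 28 counts in the WT libraries and 24, 33 and 22 counts in the sKO libraries. Its log2 fold change was -0.22 (SE 0.30, edgeR adjusted p = 0.792). Tektip1, for a protein that binds tektins in the doublet wall, had 0 counts in all 6 libraries, which allows up to 0.187 CPM in the shallowest. Tekt5l had 0 to 2 counts per library. Tekt5l was chosen after its values were seen.

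The profile over the 6 libraries most like the median of the 9 tested genes was that of 1700104B16Rik, with a root mean square difference of 0.0637 in log2 CPM after centring each gene on its mean. Next among 16991 genes of at least 1 CPM were Katnal2, a katanin family gene (0.117), Samd15 (0.117), Gm21284 (0.126) and Gm38805 (0.127). Of the 9 genes, Nme5 (0.107) and Hydin (0.192) lay nearest to their own median profile and Tekt1 (0.858) farthest. The difference over 6 libraries is a description, and all of these libraries enter the comparison of genotypes.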
